A study of Mus musculus with 8 samples.

Results

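The loci described here are the named pseudogenes of the mouse heart transcriptome, set beside the genes they are named after. A locus was taken when its only symbol ended in -ps or in -ps and a number and its level reached 1 FPKM (fragments per kilobase of transcript, scaled to the library's mapped fragments) in at least 1 of 8 hearts. Of 80155 loci in the deposited tables, 39614 carried a symbol and 842 had such a single pseudogene symbol, and 135 of these reached 1 FPKM and are the members. They were thus chosen by symbol and selected on their FPKM, and that they reached 1 FPKM is no finding. The symbol before -ps was read as the name of the parent gene. A parent locus was found for 100 members, at 57 distinct loci, and 35 members had none under that name. The RNA came from whole hearts of male Hsd:ICR(CD-1) mice, an outbred stock, with the atrial appendages removed. There were 4 hearts at postnatal day 1 (P1) and 4 at postnatal day 7 (P7), with 1 library per heart. The labels name no transgene or treatment for either stage. The comparison asks which pseudogene transcripts differed in level between P1 and P7 hearts, and whether they moved with their parents.

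Pseudogenes are copies of genes that no longer encode the original protein. A processed pseudogene arises when an mRNA is reverse-transcribed and inserted elsewhere in the genome, so it has no introns and starts without the promoter of its parent. An unprocessed pseudogene arises by duplication of a gene, and a unitary pseudogene is a gene that lost its function with no working copy left. Genes with abundant mRNA, above all those of ribosomal proteins, have left many processed copies in mammalian genomes, and short reads from a recent copy can be hard to tell from reads of the parent.

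In GENCODE M21, an annotation on the GRCm38 build that the deposited values also use, 128 of the 135 members were found by symbol and position. Of these, 104 were processed pseudogenes, 20 were unprocessed or unitary ones, 1 was polymorphic and 3 were listed as protein-coding (Rps12-ps3, Rpl9-ps6 and Rpl36a-ps1). Sequences of both partners were found for 96 pairs, and their aligned identity ranged from 71.7% to 100% with a median of 98.6%. In 74 pairs at least 1 window of 100 bases was present without a mismatch in both partners, so that part of the reads could come from either. In the other 22 pairs no such window was shared. To show how close the partners are, 1 stretch of 100 bases is printed for each of 3 pairs on which the results turn. It is the stretch of the parent's coding sequence with the most differences among those aligned without a gap. Sequences are in transcript orientation, from the GENCODE M21 transcripts, with the differing bases in capitals. In Got2-ps1 the stretch lies at chr5:138365028-138365127 on the minus strand and differs from Got2 at 3 bases.
Got2-ps1: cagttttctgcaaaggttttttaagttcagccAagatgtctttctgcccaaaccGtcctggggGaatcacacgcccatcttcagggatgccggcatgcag
Got2: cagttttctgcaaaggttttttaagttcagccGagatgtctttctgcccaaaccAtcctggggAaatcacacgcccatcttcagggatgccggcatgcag
In Rpl34-ps1 it lies at chr6:71124691-71124790 on the plus strand, and differs from Rpl34 at 1 base.
Rpl34-ps1: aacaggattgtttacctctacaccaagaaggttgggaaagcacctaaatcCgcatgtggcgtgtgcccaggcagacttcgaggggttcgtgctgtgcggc
Rpl34: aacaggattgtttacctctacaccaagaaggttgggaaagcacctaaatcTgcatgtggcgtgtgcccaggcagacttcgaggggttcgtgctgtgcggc
In Hspe1-ps5 it lies at chr2:72955993-72956092 on the plus strand, and differs from Hspe1 at 6 bases. Over all 297 aligned bases this pair had 17 mismatches, and 12 gap bases besides, so it is less alike elsewhere.
Hspe1-ps5: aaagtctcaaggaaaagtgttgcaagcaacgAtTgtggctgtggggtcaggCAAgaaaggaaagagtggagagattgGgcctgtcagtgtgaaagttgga
Hspe1: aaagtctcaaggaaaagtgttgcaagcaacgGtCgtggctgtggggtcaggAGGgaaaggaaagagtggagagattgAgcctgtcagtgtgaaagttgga

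The tables gave FPKM without counts, so the depth behind a single value is unknown and no counting interval can be set. Between 20269 and 28662 loci per heart reached 1 FPKM, with the highest number in P1 replicate 3. The sum of FPKM over all loci was 2136937 in P7 replicate 4 and between 1038650 and 1400587 in the other 7 hearts. The members' summed FPKM lay between 998 and 1561, which was 0.056% to 0.145% of all FPKM. The cardiomyocyte markers Myh6, Tnnt2, Tnni3, Actc1, Myl2 and Ryr2 were at 66.8 FPKM or more in every heart, as the tissue label would have it. Of the germ cell markers, Ddx4 and Dazl stayed under 0.187 FPKM, but Sycp3 was at 4.49 to 6.82 in every heart. The liver marker Alb ranged from 0.289 to 40.3 FPKM, with the highest value in a P1 heart. The fibroblast markers Col1a1 and Dcn and the endothelial markers Cdh5 and Tie1 were called higher in P7. The other listed markers of these cell types, Col1a2, Pdgfra, Pecam1 and Kdr, were not called. In whole hearts a changed share of a cell type and a changed RNA level per cell cannot be told apart.

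Most named pseudogenes were detected at a low level. The median over the 135 members of the mean FPKM of 8 hearts was 1.14, against 5.34 for all tested loci with a symbol, which were held to the same minimum. The mean was under 2 FPKM in 88 members, between 2 and 10 in 32, and at least 10 in 15. In 42 members all 8 hearts reached 1 FPKM, in 32 only 1 heart did, and 38 members were listed at 0 in at least 1 heart. At the edge of the rule, Itpa-ps1 and Defa-ps13 were just inside with a highest FPKM of 1.01 and 1.04, and Rpl31-ps10 and Rpl31-ps6 were just outside at 0.994 each.

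**Figure D1:**
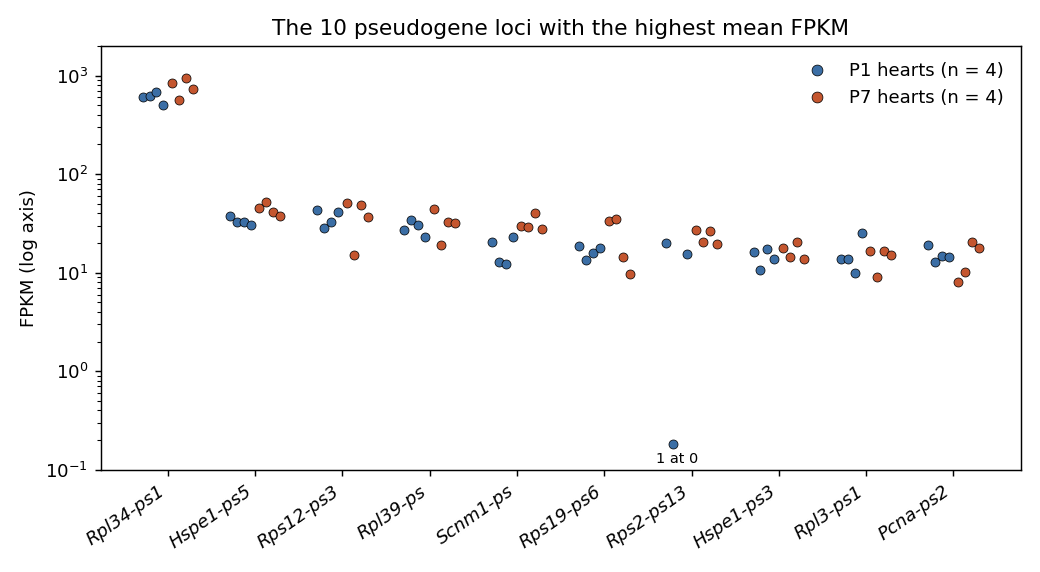
FPKM of the 10 pseudogene loci with the highest mean, on a log axis, with 1 point per heart (blue P1, red P7, n = 4 each). Rpl34-ps1 lay between 504 and 944 FPKM, above every other locus shown, and Rps2-ps13 had 1 P1 heart at 0 and 1 at 0.183.

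The pseudogene with the highest level was Rpl34-ps1, a processed copy on chromosome 6 of the gene for a large-subunit ribosomal protein. Its FPKM was 605, 617, 677 and 504 in P1 replicates 1 to 4 and 832, 562, 944 and 729 in P7 replicates 1 to 4. The stages overlapped and the difference was not called (mean 601 ± 71.8 at P1 and mean 767 ± 162 at P7, SD over 4 hearts, log2 fold change 0.33 ± 0.23 SE, limma adjusted p = 0.425). All other members together summed to between 381 and 617 FPKM per heart, which was less than this 1 locus in every heart but P1 replicate 4 (511 beside 504). Of its 100-base windows, 46.3% also occurred in Rpl34 and 98.4% in at least 1 other annotated gene, so its level cannot be assigned to this copy alone.

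Among the next 9 loci by mean FPKM, 5 were copies of ribosomal protein genes and 2 were copies of Hspe1, which encodes the small mitochondrial chaperonin that works with Hsp60. Hspe1-ps5, a processed copy within an intron of Sp3 on the opposite strand, was at 37.4, 32.9, 32.4 and 30.3 FPKM in P1 and 44.9, 52.7, 41.2 and 37.8 in P7. All 4 P7 hearts lay above all 4 P1 hearts, but the difference did not pass the test across all loci (log2 fold change 0.39 ± 0.18 SE, limma adjusted p = 0.268). With 90.6% identity and no shared 100-base window, it is the most abundant member whose sequence is separable from its parent throughout. Hspe1-ps3, in an intron of Kmt2c, ran from 10.7 to 17.4 FPKM in P1 and from 13.9 to 20.4 in P7, and also shared no window with Hspe1.

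The other loci of that top group gave mean FPKM values of 37.1 (Rps12-ps3), 30.3 (Rpl39-ps), 24.4 (Scnm1-ps), 19.8 (Rps19-ps6), 16.1 (Rps2-ps13), 15.0 (Rpl3-ps1) and 14.6 (Pcna-ps2). Pcna-ps2 is a copy of the gene for the sliding clamp of DNA replication and was at 23.5% of its parent. Rps12-ps3 was identical to the parent's transcript over its whole aligned length, so its reads and those of Rps12 are the same in sequence. Scnm1-ps lies where GENCODE M21 lists the protein-coding gene Scnm1, a splicing factor. It was at 20.4, 12.9, 12.3 and 23.0 FPKM in P1 and 29.8, 28.9, 39.9 and 27.8 in P7. All P7 hearts were above all P1 hearts, and the difference just missed the threshold (log2 fold change 0.88 ± 0.23 SE, limma adjusted p = 0.0561). It was called when all 8 hearts had to reach 1 FPKM (0.0132), with median-ratio scaling (0.0272), with quantile normalization (0.0288) and without P1 replicate 4 (0.0239).

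Beside their parents, the pseudogenes were faint in FPKM. In 74 of the 96 pairs with both sequences, part of the reads could come from either partner. The percentages that follow are therefore those of the listed FPKM, not of the copies alone. Of the 57 parent loci, 55 had a mean of at least 10 FPKM, Bambi, which encodes a decoy receptor of the TGF-beta family, had 2.92, and Vamp7 was listed at 0 in all hearts. Over the 99 pairs with a parent above 0, the pseudogene's mean FPKM was a median of 0.587% of the parent's. It was under 1% in 66 pairs, 1% to 10% in 22, and 10% or more in 11. Rpl34-ps1 was the 1 member of these above its parent, at 221% of Rpl34, and it exceeded Rpl34 in all 8 hearts (189% to 289%). The other 10 pairs at 10% or more, listed for their values, were Bambi-ps1 (28.5%), Pisd-ps2 (28.3%), Pcna-ps2 (23.5%), Rps2-ps13 (22.9%), Hspe1-ps5 (19.9%), Mrpl48-ps (17.4%), Pisd-ps1 (15.2%), Tma7-ps (13.5%), Got2-ps1 (13.1%) and Rpl3-ps1 (11.99%). At the other end, Rpl22-ps1 and Tpt1-ps5 reached 0.0255% and 0.0258% of their parents.

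**Figure D2:**
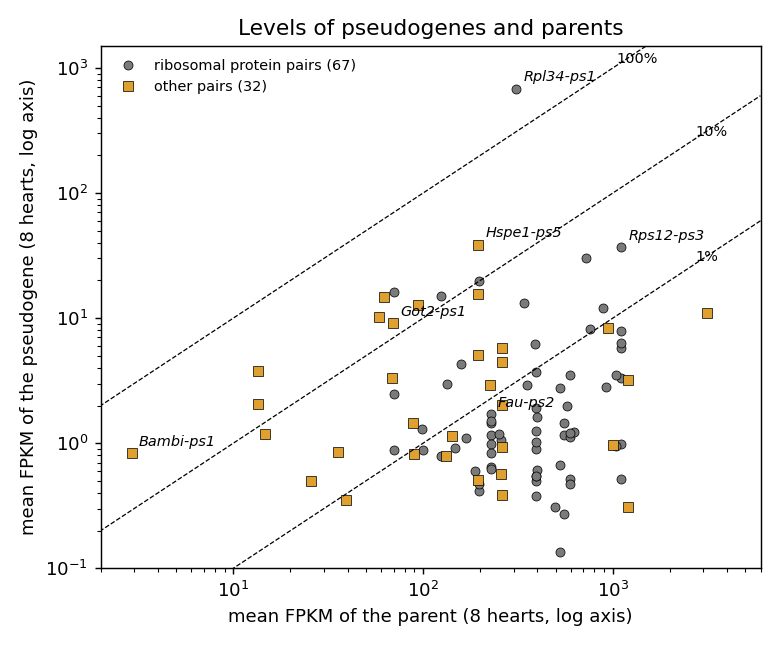
Mean FPKM over 8 hearts of each pseudogene (vertical) against its parent (horizontal), both on log axes, for 67 ribosomal protein pairs and 32 other pairs. Dashed lines mark 100%, 10% and 1% of the parent, and 66 of the 99 points lie below the 1% line.

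Vamp7-ps is the other member that exceeded its parent in every heart. Vamp7 encodes a SNARE protein of late endosomes and lysosomes, and its locus was listed at 0 in all 8 libraries. The processed copy Vamp7-ps, at chr2:174046619-174047273 on the minus strand, was at 0.804, 0.803, 1.23 and 0.749 FPKM in P1 and 1.96, 1.76, 2.15 and 0.924 in P7. The stages overlapped through P7 replicate 4, and the difference was not called (log2 fold change 0.49 ± 0.21 SE, limma adjusted p = 0.230). An exact 0 for the parent may be a failed estimate, so no ratio was formed.

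Between P1 and P7, a locus was called when the adjusted p of limma on log2(FPKM + 1) was under 0.05 and the ratio of mean FPKM was at least 1.5. Of 43172 loci tested, 3.45% were called higher in P7 and 0.371% lower. Of the 135 members, 4 were called higher (Got2-ps1, Vmn2r-ps19, Znf41-ps and B3gnt9-ps) and 0 lower. An unadjusted limma p under 0.05 in either direction was found in 23 (17.04%). This share was 18.5% over all tested loci and 29.7% over the tested loci with a symbol. Since 23 members reached 1 FPKM in P1 hearts only and 18 in P7 hearts only, their selection favoured a difference, and Got2-ps1 and Znf41-ps are among the latter 18. Among the members at 2 to 10 FPKM, 3 of 32 were called, beside 10.05% of the other annotated loci at that level. Among those under 2 FPKM it was 1 of 88, beside 1.82%, and at 10 FPKM or more it was 0 of 15, beside 11.1%.

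Got2-ps1 gave the largest change of any member. Its parent Got2 encodes the mitochondrial aspartate aminotransferase, an enzyme of the malate-aspartate shuttle. Got2-ps1, at chr5:138364260-138365552 on the minus strand, was at 0.441, 0.212, 0.0489 and 0.620 FPKM in the 4 P1 hearts. It was at 11.2, 10.1, 37.7 and 12.3 FPKM in the 4 P7 hearts. The stages were far apart, and P7 replicate 3 stood above the other 3 P7 hearts. The mean was 0.330 ± 0.251 at P1 and 17.8 ± 13.3 at P7 (SD over 4 hearts), a ratio of 53.9, and the log2 fold change was 3.63 ± 0.35 SE (limma adjusted p = 0.00189).

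Got2 itself did not follow to that extent. It was at 61.4, 48.0, 34.95 and 87.3 FPKM in P1 and 75.6, 56.2, 108 and 82.5 in P7. The stages overlapped, with a log2 fold change of 0.51 ± 0.28 SE that was not called (limma adjusted p = 0.350). The pseudogene stood at 0.140% to 0.718% of Got2 in the P1 hearts and at 14.8% to 34.9% in the P7 hearts. The difference between both log2 fold changes was 3.12 ± 0.31 SE, and all P7 hearts lay above all P1 hearts in the ratio. Got2-ps1 became a member through its P7 hearts only. The selection thus favoured this direction, and no permutation p is given for the pair. Aligned over its whole length, Got2-ps1 was 99.1% identical to Got2, with 34.9% of its 100-base windows present in Got2 and the same 34.9% in any other annotated gene. It overlaps an exon of the lincRNA Gm10874 on the opposite strand, which the same tables listed at 0.0505 FPKM or less in every heart.

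Vmn2r-ps19 and Znf41-ps both lie on chromosome 4. Vmn2r-ps19 is an unprocessed copy from the family of vomeronasal type 2 receptors, which detect pheromones, at chr4:147444380-147444648 on the plus strand. It was at 1.23, 0.601, 0 and 0 FPKM in P1 and at 2.61, 4.35, 6.70 and 2.76 in P7. The 4 P7 values all exceeded the 4 P1 values (means 0.458 ± 0.587 and 4.11 ± 1.90, SD, n = 4 each, log2 fold change 1.82 ± 0.31 SE, limma adjusted p = 0.0126). The span that the tables give for this locus was shared by 63 loci. Of the other 32 that had a symbol and were tested, 3 were called higher and 1 lower. Of these, chosen after their values were seen, AL627077.2 rose from 4.27 ± 1.58 to 20.97 ± 3.06 FPKM and Gm13248 from 0.192 ± 0.129 to 1.602 ± 0.269 (SD, n = 4 each). The 1 called lower, a locus named AL627077.1, fell from 2.76 ± 0.664 to 0.628 ± 0.527 FPKM (SD, n = 4 each). Vmn2r-ps18, also in the span, was at 1.38 ± 0.587 FPKM in P1 and 0.599 ± 0.570 in P7 and was not called. The call for Vmn2r-ps19 was lost without P1 replicate 2, P1 replicate 3 or P7 replicate 3 (adjusted p of 0.0778, 0.0797 and 0.0665).

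Znf41-ps, an unprocessed relative of the zinc finger genes, lies at chr4:145825237-145829942 on the plus strand. It was at 0.174, 0, 0.0246 and 0.0923 FPKM in P1 and at 0.725, 0.653, 2.19 and 1.04 in P7. The stages did not overlap, with all P1 values far under 1 FPKM and the P7 values around it (log2 fold change 0.95 ± 0.24 SE, limma adjusted p = 0.0468). Of its 100-base windows, 77.3% also occurred in other annotated genes. It was called in 4 of the 15 other settings in which it was tested. Among the 4 is 1 with another parent choice, which leaves the values of the pseudogenes unchanged.

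B3gnt9-ps was at 5.34, 3.72, 4.41 and 7.27 FPKM in P1 and at 11.5, 8.92, 12.2 and 10.3 in P7. All P7 hearts were above all P1 hearts (means 5.18 ± 1.54 and 10.7 ± 1.44, SD, n = 4 each, ratio 2.07, log2 fold change 0.95 ± 0.21 SE, limma adjusted p = 0.0291). GENCODE M21 lists at this place the protein-coding gene B3gnt9, a glycosyltransferase, so the pseudogene name is that of the older annotation. The neighbour D230025D16Rik, which shares the span in the tables, also had all P7 hearts above all P1 hearts (5.38 ± 0.891 and 7.61 ± 0.984 FPKM, SD, n = 4 each) and was not called (limma adjusted p = 0.230). B3gnt9-ps was called in 8 of the 16 other settings. Among the 8 is 1 with another parent choice, which leaves the values of the pseudogenes unchanged.

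**Figure D3:**
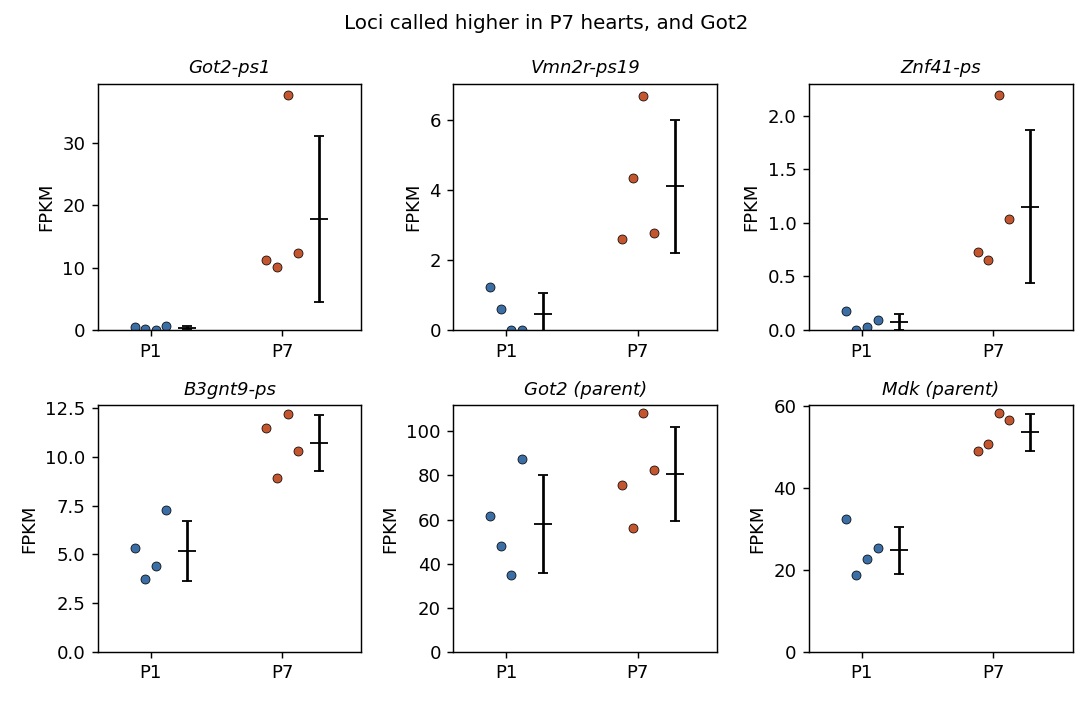
FPKM per heart in P1 and P7 of the 4 pseudogenes and the 1 parent (Mdk) called higher in P7, and of Got2, on linear axes from 0. Points are hearts (n = 4 per stage), and the bars beside them give the mean ± SD. In the called loci all P7 points lie above all P1 points, and in Got2 they overlap.

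Of the 56 parent loci that were tested, Mdk was called higher and 0 were called lower. An unadjusted limma p under 0.05 was found in 8 (14.3%), beside 18.5% of all tested loci and 29.7% of those with a symbol. Mdk encodes midkine, a secreted heparin-binding growth factor. Its FPKM was 32.4, 18.7, 22.7 and 25.3 in P1 and 49.1, 50.7, 58.3 and 56.6 in P7. The stages did not overlap (log2 fold change 1.11 ± 0.20 SE, limma adjusted p = 0.0150). The call was lost when any 1 of 5 hearts was left out (P1 replicate 2 or 3, P7 replicate 1, 3 or 4). The pseudogene Mdk-ps1 was at 0.279 FPKM in P1 replicate 1 and at 0 in the other 3 P1 hearts. In P7 it was at 0, 1.34, 0.820 and 0.372 FPKM, so the stages overlapped and it was not called (log2 fold change 0.55 ± 0.28 SE, limma adjusted p = 0.311).

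Without regard to the test, all P7 hearts lay above all P1 hearts in 11 members, 8.15% of them, and below in 4, 2.96% of them. Over all 43172 tested loci, of which 17960 had a symbol, these shares were 8.50% and 4.03%. Beside other annotated loci of like level, the members' share above was smaller in each band. Under 2 FPKM it was 4 of 88 beside 9.87%. At 2 to 10 FPKM it was 5 of 32 beside 19.2%, and at 10 FPKM or more 2 of 15 beside 21.4%. Below, it was 4 of 88 beside 3.12% under 2 FPKM, and 0 in both higher bands beside 2.88% and 2.12%. Beside the loci named above, the 11 included 1 Rps12-ps19 locus, Rpl23a-ps3, Slc2a4rg-ps, Ncr3-ps and Cdk3-ps, which were named after their values were seen. Ncr3-ps, the unprocessed mouse remnant of a natural killer cell receptor gene, was at 0.161 to 0.460 FPKM in P1 and at 0.937 to 1.39 in P7 (limma adjusted p = 0.0776). The 4 on the low side were Tmem181c-ps, Speer7-ps1, Mdm4-ps and Tpt1-ps5. Tmem181c-ps was at 0.907 to 2.43 FPKM in P1 and at 0 to 0.583 in P7 (log2 fold change -0.88 ± 0.24 SE, limma adjusted p = 0.0612). Speer7-ps1 was at 0.856 to 1.80 FPKM in P1 and at 0.183 to 0.472 in P7 (log2 fold change -0.75 ± 0.20 SE, limma adjusted p = 0.0600). With median-ratio scaling of the hearts, which moved the median of all tested loci from -0.08 to -0.21 on the log2 scale, Tmem181c-ps, Speer7-ps1 and Rpl30-ps3 were called lower.

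In 99 pairs both partners were tested, and in 82 of them the log2 fold changes of pseudogene and parent differed by less than 0.5. Most values were small in themselves: the pseudogene was within 0.5 of 0 in 90 pairs and the parent in 88. The signs were the same in 65 pairs, and in 30 the pseudogene was negative and the parent positive. The difference (pseudogene minus parent) had a median of -0.10 and ranged from -1.32 for Fau-ps2 to 3.12 for Got2-ps1. It was negative in 68 pairs and positive in 31. With quantile normalization the median was on the other side of 0, at 0.06. In the 36 pairs whose pseudogene reached 1 FPKM in all 8 hearts it was -0.04. A change of a faint locus is understated on the log2(FPKM + 1) scale, and most parents were far above 1 FPKM while most pseudogenes were not.

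**Figure D4:**
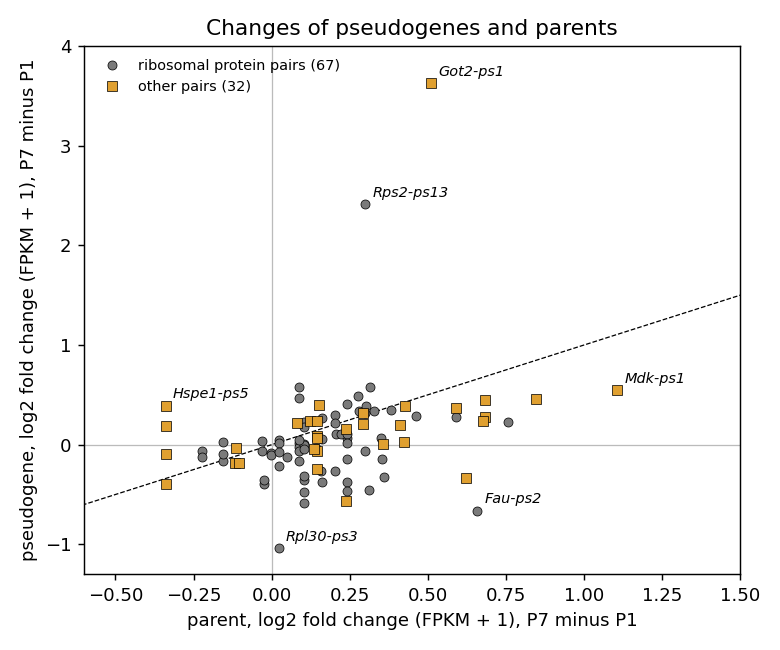
Log2 fold change (FPKM + 1, P7 minus P1) of each pseudogene against that of its parent, for 67 ribosomal protein pairs and 32 other pairs. The dashed line marks equal change. Got2-ps1 (3.63) and Rps2-ps13 (2.41) lie far above it, and Fau-ps2 (-0.66) and Rpl30-ps3 (-1.04) below.

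Ratios of pseudogene to parent were formed after adding 1 FPKM to both. In 6 pairs all P7 hearts lay on 1 side of all P1 hearts. They include Got2-ps1, where P7 lay above, and Fau-ps2, Hmgn2-ps1, Tpt1-ps5 and Rpl21-ps12, where P7 lay below. For Hmgn2-ps1 the separation depends on the added 1 FPKM. Without it the stages overlapped, with the copy at 0% to 1.22% of Hmgn2 in P1 and 0% to 0.224% in P7. Got2-ps1 reached 1 FPKM in P7 hearts only, and Hmgn2-ps1 and Tpt1-ps5 in P1 hearts only, so the selection favoured the direction seen in these 3. For Fau-ps2 and Rpl21-ps12, which reached it in both stages, the exact two-sided permutation p was 0.0286, before any correction over 99 pairs. This is the smallest that 4 against 4 hearts can give. Among single loci the same kind of separation was found in 8.50% (above) and 4.03% (below). Without P7 replicate 2 the number of such pairs was 14.

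Fau-ps2 had the lowest difference in log2 fold change from its parent, -1.32, but the stages nearly touched in the ratio. Without the added 1 FPKM, it was at 0.692% of Fau in P1 replicate 1 and at 0.689% in P7 replicate 4. Fau encodes a fusion of a ubiquitin-like protein and ribosomal protein S30, and Fau-ps2 lies in an intron of Drg1 on the same strand. Reads of unspliced Drg1 RNA and of the pseudogene cannot be told apart there. Fau-ps2 was at 1.48, 3.12, 3.32 and 1.35 FPKM in P1 and at 0.569, 1.49, 0.595 and 1.66 in P7. Fau was at 214, 152, 152 and 190 FPKM in P1 and at 282, 294, 294 and 240 in P7. The pseudogene overlapped between stages while Fau did not, and neither was called (log2 fold changes -0.66 and 0.66, limma adjusted p = 0.214 and 0.0937). The pair shares no 100-base window and was the least alike of all, at 71.7% identity.

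In Tpt1-ps5 and Hmgn2-ps1 the pseudogene was near 0 in P7. Tpt1 encodes translationally controlled tumour protein, and Tpt1-ps5 was at 0.371, 1.30, 0.461 and 0.213 FPKM in P1 and at 0, 0.151, 0 and 0 in P7. Tpt1 was at 971 to 1180 FPKM in P1 and at 1015 to 1609 in P7. The other copy, Tpt1-ps3, is identical to Tpt1 over its length and was at 2.38 to 3.65 FPKM in P1 and 3.21 to 3.79 in P7. Hmgn2, a nucleosome-binding protein gene, was at 158 to 283 FPKM in P1 and 240 to 396 in P7. Its copy Hmgn2-ps1 was at 2.64, 0, 0 and 0.718 FPKM in P1 and at 0.600, 0, 0.558 and 0 in P7, so 4 of its 8 values were 0. None of these 5 loci was called.

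Rpl21-ps12 lies in an intron of Iqsec1 on the same strand, where reads of unspliced host RNA and of the pseudogene cannot be told apart. Rpl21-ps12 was at 1.62, 1.22, 1.54 and 1.57 FPKM in P1 and at 0.433, 1.03, 0.600 and 1.26 in P7. The stages overlapped through P7 replicate 4. Rpl30-ps3 had the lowest log2 fold change of any member (-1.04 ± 0.30 SE, limma adjusted p = 0.0821) at 1.67, 1.06, 1.46 and 3.06 FPKM in P1 and 0, 0.287, 1.40 and 0 in P7. Its parent Rpl30 had a log2 fold change of 0.02, and the ratio overlapped between stages through P7 replicate 3 (exact permutation p = 0.0571).

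Grouped by the parent's symbol, 68 of the 135 members were copies of cytosolic ribosomal protein genes, the subunits that make up the ribosome. Of these 68, 0 were called, and 34 had a positive and 34 a negative log2 fold change, with a median of 0.00. An unadjusted limma p under 0.05 was found in 8 (11.8%), beside 18.5% of all tested loci and 29.7% of those with a symbol. Their 33 parents had a median of 0.22, with 27 positive and 0 called. All 85 ribosomal protein loci without -ps had a median of 0.21, with 1 called higher. With median-ratio scaling the medians were -0.15 for the pseudogenes, -0.02 for their parents and -0.03 for the 85 loci, so the sign of the parents' median depends on the scaling. The median of all tested loci was -0.08 as deposited and -0.21 with that scaling.

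Several parents had more than 1 member, and among those described next the copies lay on both sides of 0. The 9 copies of Rpl31 ranged from -0.58 to 0.22 in log2 fold change (Rpl31 itself 0.10), the 7 of Rpl21 from -0.46 to 0.41 and the 7 loci named after Rps12 from -0.17 to 0.58. The 4 copies of Hspe1 ranged from -0.39 (Hspe1-ps2) to 0.39 (Hspe1-ps5), beside -0.34 for Hspe1. The 5 copies of Hmgb1, a chromatin protein gene, ranged from -0.24 to 0.23 beside 0.14 for Hmgb1. None of these copies was called, and together the Hspe1 copies had a mean of 59.8 FPKM beside 195 for Hspe1. The 3 loci named Rps12-ps19, in 1 stretch of chromosome 11, had means of 7.82, 5.74 and 3.32 FPKM.

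The remaining groups were small. They follow the first letters of the parent's symbol and are incomplete by function. The copies of Hspe1, a mitochondrial chaperonin gene, and Ncr3-ps are thus counted among the other 42. The 6 metabolic and mitochondrial copies had a median log2 fold change of 0.22 with Got2-ps1 as the 1 call, and their 6 parents had a median of 0.38 with 0 calls. The 7 chromatin and nuclear copies (median 0.07) and the 2 copies of translation factors (-0.21) had 0 calls. The 10 copies in the receptor and immune group were all of olfactory or vomeronasal receptor families. They had a median of -0.15 with Vmn2r-ps19 as the 1 call. Of the other 42, 2 were called (Znf41-ps and B3gnt9-ps).

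In 3 ribosomal protein pseudogenes single hearts lay far from the rest, and Rps26-ps1 and Rpl19-ps11 are named here because of their values. Rps2-ps13, a copy on the X chromosome of the gene for a small-subunit protein, was at 20.2, 0.183, 0 and 15.6 FPKM in P1 and at 26.9, 20.3, 26.3 and 19.5 in P7. P1 replicates 2 and 3 were at or near 0 while the other 6 hearts were at 15.6 or above. Its log2 fold change was 2.41 ± 0.84 SE and was not called (limma adjusted p = 0.146). Rps2 was at 34.0 and 88.9 FPKM in those 2 hearts, within its range of 34.0 to 111 over all 8. Rps26-ps1 was at 35.7 FPKM in P1 replicate 4 and at 42.5 in P7 replicate 1, and at 1.41 to 4.66 in the other 6 hearts. Rpl19-ps11 was at 30.9 FPKM in P1 replicate 4 beside 4.47 to 6.77 in the other P1 hearts, and at 6.69 to 23.7 in P7.

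The share of sequence held in common did not order the levels. Pairs without a shared 100-base window (22) had a median pseudogene level of 0.667% of the parent. This median was 0.514% in the 42 pairs with some but under 50% of windows shared, 0.472% in the 22 with 50% to under 100%, and 0.612% in the 10 with all windows shared. The median size of the difference in log2 fold change, regardless of sign, was 0.25, 0.17, 0.21 and 0.11 in these 4 groups. Of the matched members, 53 overlapped another annotated gene and 42 of them a protein-coding one, and whether the counting used the strand is not given in the sources used here.

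**Figure D5:**
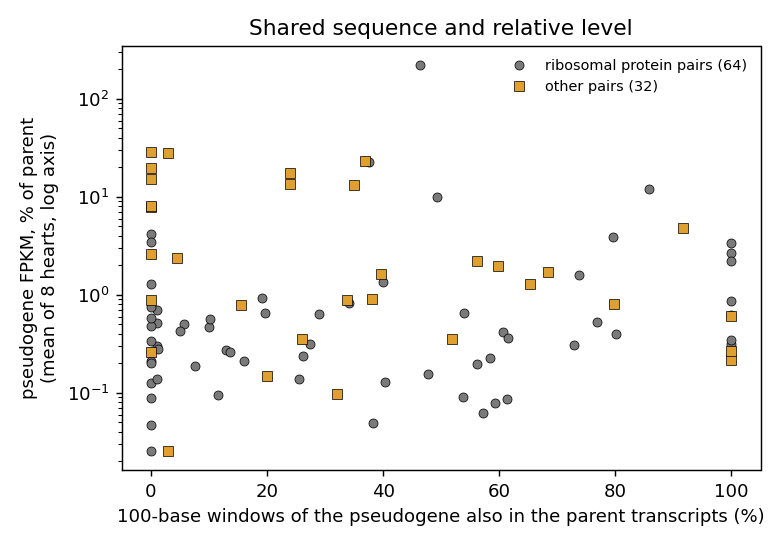
Pseudogene FPKM as a percent of the parent's (mean of 8 hearts, log axis) against the percent of the pseudogene's 100-base windows found in the parent's transcripts, for 64 ribosomal protein pairs and 32 other pairs with both sequences. Points at 0% and at 100% of shared windows cover overlapping ranges of relative level.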

How the data were processed

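RNA of 4 P1 and 4 P7 hearts was DNase-treated and ribodepleted, and libraries were made with the ScriptSeq v2 kit and sequenced as read pairs. The authors had the reads aligned to GRCm38 with the Ensembl 70 annotation (aligner not given in the sources used here), and deposited FPKM per locus and heart. No counts were given, so FPKM were tested on log2(FPKM + 1) with limma 3.58.1 (eBayes with trend, R 4.3.3) over the 43172 loci that reached 1 FPKM in any heart, with Benjamini-Hochberg adjustment. On simulated data 193 of 200 loci with a 4-fold change were recovered, with 12 unchanged loci called. The changed loci were drawn only from more abundant loci. This recovery therefore does not hold for faint members, and 88 members had a mean under 2 FPKM. Members and lists were chosen with earlier results of these data known. A parent was any locus carrying the name before -ps; 21 members had one that also carried other symbols. Named were called loci, the 10 most abundant members, the 5 highest and 5 lowest pair differences, members above their parent in every heart, the edges of the rule and copies of the same parents. Identity came from local alignment (Biopython 1.88). Pairwise ratios of FPKM + 1 were tested by exact permutation. Replicates are separate hearts. Alternatives were another pseudocount, filters, scalings, a replicate block, no trend, other parent choices and each heart left out. One item that these rules would name is not reported here.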

Additional observations from a re-analysis of the deposited data

Results flagged for a closer look

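Within each stage, the gap between 1 heart and the nearest other heart was set against the whole range of the 4 hearts for the 69 named loci. In 11 of 138 groups of 4 this share was above the 95% critical value of Dixon's test, and chance alone flags about 1 group in 20. Some loci, such as Rps26-ps1 and Rpl19-ps11, were named for their values, and without all loci named in that way it was 7 of 114 groups.

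P7 replicate 3 stood apart in Got2-ps1 (37.7 FPKM beside 10.1 to 12.3, gap 0.92 of the range) and in Scnm1-ps (39.9 beside 27.8 to 29.8, gap 0.838). P1 replicate 4 stood apart in Rps26-ps1 (35.7 FPKM beside 2.69 to 3.46, gap 0.976), in Rpl19-ps11 (30.9 beside 4.47 to 6.77, gap 0.913) and in the parent Rpl3 (187 beside 98.5 to 112, gap 0.843). P7 replicate 1 stood apart in Rps26-ps1 (42.5 beside 1.41 to 4.66, gap 0.921). P1 replicate 3 stood apart in Vamp7-ps (1.23 FPKM beside 0.749 to 0.804, gap 0.886), and P1 replicate 1 in Rps19-ps11 (1.31 beside 0.244 to 0.403, gap 0.85). In 3 loci a single heart was above 0, so the gap was the whole range (1): Tpt1-ps5 in P7 replicate 2 (0.151 FPKM), Defa-ps13 in P1 replicate 3 (1.04) and Mdk-ps1 in P1 replicate 1 (0.279). Explanations for these values were not tested.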

How the results depend on the processing

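The 4 pseudogenes called higher became 5 with median-ratio scaling, 6 with quantile normalization, 3 without the trend, 2 with no filter on low values and 2 when all 8 hearts had to reach 1 FPKM, and 1 to 5 when 1 heart was left out. They were 1 without P1 replicate 2, P1 replicate 3 or P7 replicate 3, 2 without P1 replicate 1 or P7 replicate 1, 2 or 4, and 5 without P1 replicate 4. Got2-ps1 was called in all 15 other settings in which it was tested (log2 fold change 3.21 to 5.38, adjusted p up to 0.0370). Among the 15 is 1 with another parent choice, which leaves the values of the pseudogenes unchanged. The count called lower, 0, became 3 with median-ratio scaling and was 0 to 1 with 1 heart left out (1 without P1 replicate 4). Parents called higher, 1, became 5 when all 8 hearts had to reach 1 FPKM and were 0 to 1 with 1 heart left out (0 without P1 replicate 2 or 3, or P7 replicate 1, 3 or 4). Parents called lower stayed at 0. Pairs whose stages did not overlap, 6, became 0 when all 8 hearts had to reach 1 FPKM, where 36 pairs are left, and 3 with quantile normalization. With 1 heart left out they were 6 to 14, where fewer hearts separate more easily. The median pair difference, -0.10, was -0.17 to -0.07 with 1 heart left out and 0.06 with quantile normalization. Beyond the constructions named, the cause of these changes was not tested.

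Same-numbered P1 and P7 hearts did not deviate together (correlations of -0.10 to 0.12), and the labels name no pairing. Hearts were therefore not paired in the main test. These correlations alone cannot settle whether hearts of equal number share anything. With a replicate block 4 pseudogenes were called, Rps2-ps13 (adjusted p = 0.0260) in place of Znf41-ps (0.0706), and 1283 of all loci instead of 1650. Over all loci the calls ranged from 31 (without P1 replicate 2) to 3159 (without P1 replicate 4), with 2711 among loci at 1 FPKM or more throughout, 686 with no filter, and 1079 without the trend. Calls higher in P7 made up 90.3% as deposited, 61.1% with median-ratio scaling and 67.2% with quantile normalization. The sum over parent loci changed nothing, as no parent name is on several loci. Taking only parents at loci with 1 symbol, which was added once the data had been seen, left 78 pairs, 5 without overlap and a median difference of -0.09. Depth is unknown, so values under about 1 FPKM carry little weight.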
